A study of Mus musculus with 3 samples.

Results

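The Hox genes encode homeodomain transcription factors and lie in 4 clusters in the mouse genome. All protein-coding genes named Hox with a cluster letter from a to d and a number were taken, 39 of the 21900 protein-coding genes of the RefSeq annotation of GRCm38.p6 (mm10). They were followed along the clusters in deposited peak lists for H3K4me3, trimethylation of lysine 4 of histone H3, and for DLX3, a homeodomain factor of the differentiating epidermis and the hair follicle.

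The cells were suprabasal keratinocytes, the differentiating cells that overlie the basal epidermal layer, of wild-type BALB/c mice, isolated on a Percoll density gradient. Age is adult in the labels but neonatal in the series text, a conflict not settled here. Chromatin immunoprecipitation followed by sequencing (ChIP-seq) was carried out with an anti-DLX3 antibody (abcam ab178428), with an anti-H3K4me3 antibody (Diagenode C15410003) and with IgG, 1 library each and without treatment. No label says how many animals were used or how free the fraction was of other skin cells, and the IgG library was not analysed here.

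With 1 library per antibody no replicate spread could be measured, and no difference below has a replicate check or a p-value. The lists held 16735 H3K4me3 peaks with a median score of 823.67 and a median width of 2080 bp, and 18087 DLX3 peaks with a median score of 83.35 and a median width of 627 bp. The score is the authors' own value for each peak, whose definition no label gives. Scores of this kind grow with depth and peak width as well as enrichment, so it was compared only within a list, and "weak" or "strong" below means a low or high score. Depth per library is unknown.

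Within a cluster, Hox genes follow each other in the order of their paralog groups, numbered from 1 at the 3′ end to 13 at the 5′ end, and genes of the same group in different clusters derive from 1 ancestral gene. In the embryo the 3′ genes come on earlier and closer to the head, and the 5′ genes later and closer to the tail and the limb tips, and fibroblasts of adult skin are known to keep a Hox code of their site on the body. Trithorax-group enzymes deposit H3K4me3 at active and poised starts, while Polycomb-group proteins keep silent Hox genes repressed.

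H3K4me3 was found along all 4 clusters, in 57 peaks. By coverage Hoxa and Hoxb came first, with 44.2% and 37.4% of their length, while by number of peaks per 100 kb Hoxa had 13.3, Hoxd 12.4, Hoxc 12.1 and Hoxb 9.77. With only the top 20% of peaks by score, coverage was 0% in Hoxa and highest in Hoxc, at 8.79%. An H3K4me3 peak lay within 1 kb of an end of 31 of the 39 Hox genes, against 59.3% of all protein-coding genes. It lay over some part of the span of 33, for which no share of all genes is given. The 6 genes with no H3K4me3 over their span were Hoxa11, Hoxb13, Hoxc12, Hoxc11, Hoxd12 and Hoxd10, all of paralog groups 10 to 13. The Hox peaks were wider and lower in score than the list: their median width was 2367 bp against 2080 bp, and their median score was 404.93 against 823.67.

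**Figure D1:**
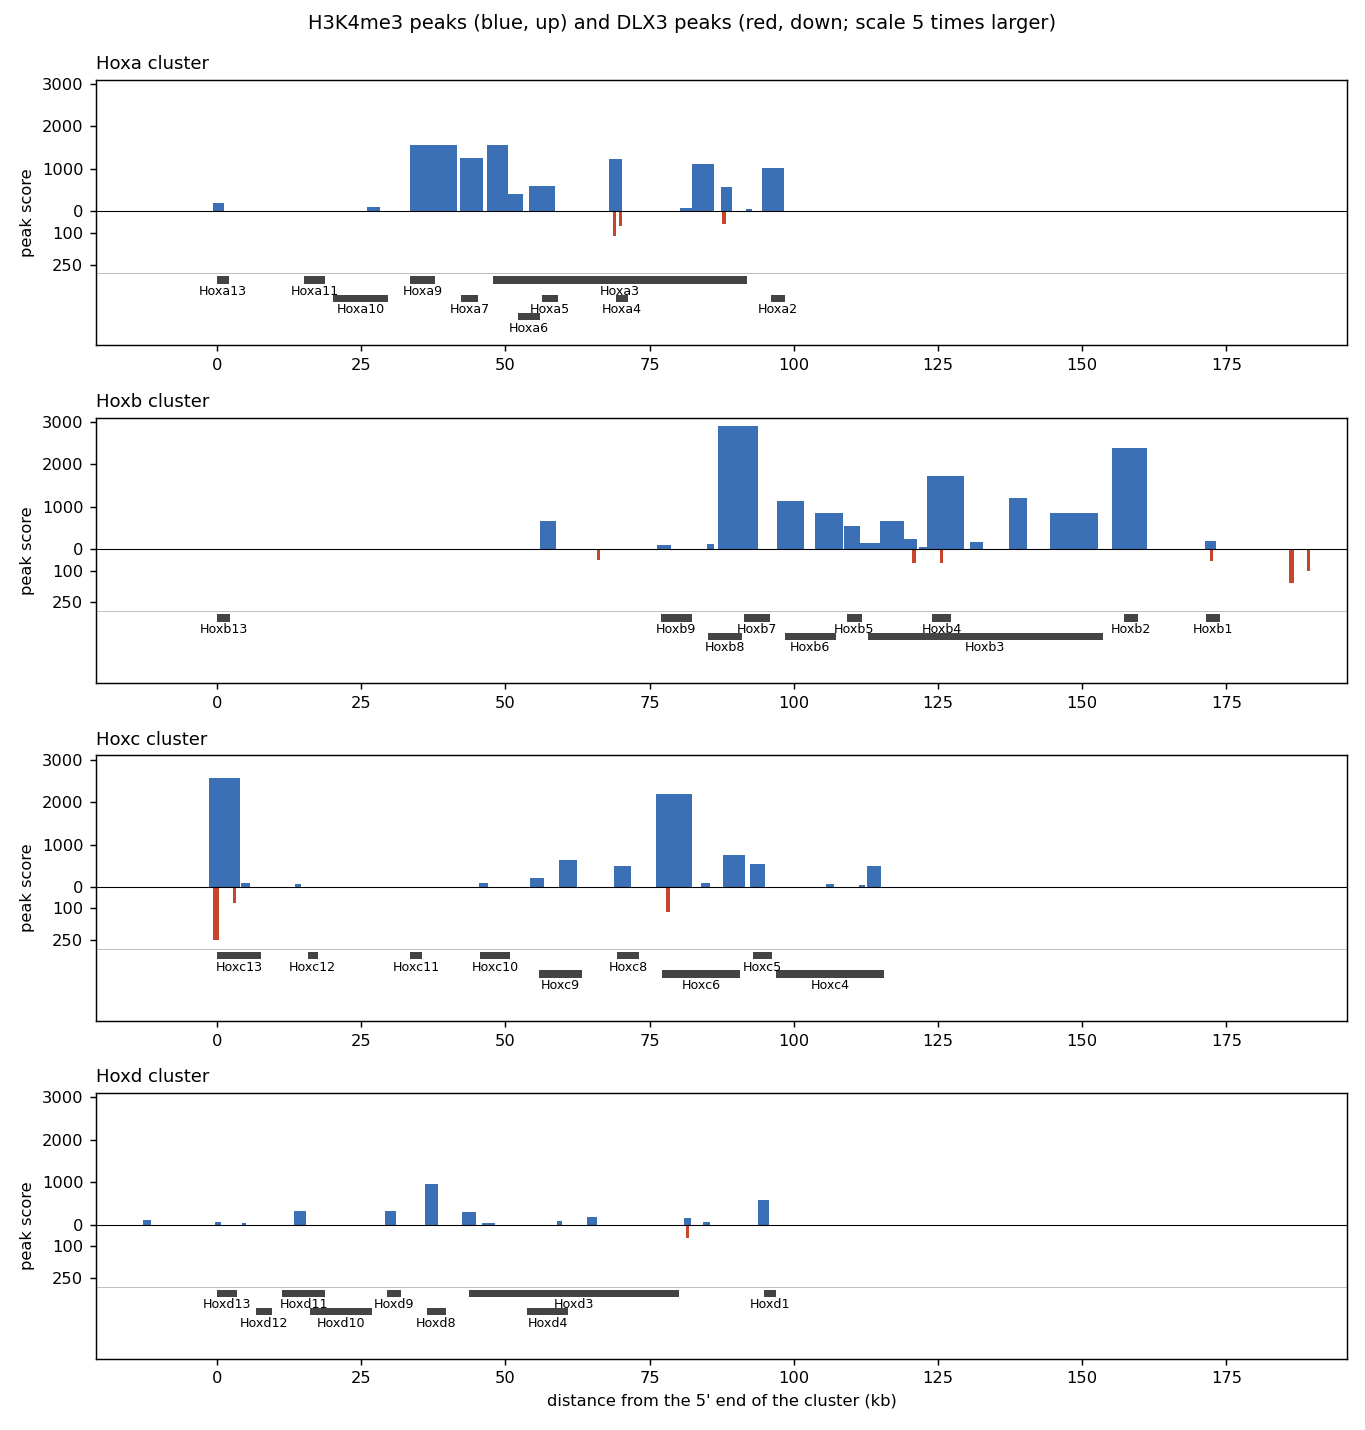
Peaks along the 4 Hox clusters, each drawn from its 5′ end (the group 13 gene) on the left, with distance in kb on the x axis and all panels to the same scale. Blue bars are H3K4me3 peaks with their score upwards, red bars are DLX3 peaks with their score downwards on a scale enlarged 5 times, and dark bars below are gene spans; not all genes and peaks of Hoxa are drawn. H3K4me3 covers 44.2% of Hoxa and 19.9% of Hoxd, and the DLX3 peak at Hoxc13 is the highest inside a cluster.

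The Hoxa cluster (chromosome 6, 11 genes on the minus strand) held 14 H3K4me3 peaks that covered 44.2% of its 105514 bp. The widest peak, 8056 bp with a score of 1569.31, ran from the start of Hoxa9 towards that of Hoxa7 and covered 100% of the span of Hoxa9. The start of Hoxa7 lay in a peak of its own of 1247.66. Hoxa4 had 1227.86 and Hoxa2 1016.84. Hoxa5 and Hoxa6 were lower, with 593.21 and 404.93. Hoxa3 had 1553.47 at its listed start, at 52213067. This start lies between Hoxa6 and Hoxa7, in the middle of the cluster. At the 5′ end the mark was sparse: Hoxa13, a limb and urogenital gene, had 189.07, Hoxa10 had 115.03, and Hoxa11 had no peak nearer to its start than 10977 bp. The longest stretch without H3K4me3, 24821 bp (52234834 to 52259654), spanned Hoxa11 and parts of Hoxa10 and Hoxa13.

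The Hoxb cluster (chromosome 11, 96194316 to 96368254, 10 genes on the plus strand) held 17 H3K4me3 peaks over 37.4% of its 173939 bp. The highest H3K4me3 score of any Hox peak, 2906.68 (96281244 to 96288164), lay within 1 kb of the starts of both Hoxb8 and Hoxb7. Hoxb2 followed with 2390.83, Hoxb4, a gene also known for blood stem cell expansion, with 1734.63, and Hoxb6 with 1132.78. Hoxb5 had a peak of 536.34 over its start and one of 859.96 within 1 kb of it. Hoxb1 and Hoxb9 had lower scores of 190.49 and 105.94. Hoxb3 is not among the genes with a listed start: the peak at the 5′ end of its annotated span scored 149.71, but this end may be a far upstream alternative start, and the best peak at either end scored 862.53. The widest peak, 8426 bp with a score of 862.53, lay inside the span of Hoxb3 (96338725 to 96347150). Hoxb13, which stands apart from the rest of the cluster, had no peak: the first 55986 bp, from Hoxb13 on, were free of H3K4me3.

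The Hoxc cluster (chromosome 15, 102921131 to 103036856, 9 genes on the plus strand) held 14 peaks over 30.6% of its length, and it departed from the order of the other clusters at its 5′ end. Hoxc13, a regulator of hair and nail keratin genes whose loss leaves mice without normal hair, lies at the far 5′ end and had the highest and second-widest peak of the cluster, with a score of 2561.3 and 5401 bp (102919799 to 102925199). The other group 13 genes had 189.07 at Hoxa13, 69.26 at Hoxd13 and no peak at Hoxb13. The next genes, Hoxc12 and Hoxc11, lay in a neighbourhood with almost no mark: the longest stretch without H3K4me3, 30851 bp, ran across both, and the nearest peak to the start of Hoxc12 was 1133 bp away at 62.33. From Hoxc10 the scores at the starts rose along the cluster to Hoxc6, with 87.52 at Hoxc10, 211.43 at Hoxc9, 498.85 at Hoxc8 and 2189.58 at Hoxc6, the widest Hoxc peak at 6100 bp. Peaks away from the starts did not follow this order. A second Hoxc9 peak, 3435 bp downstream of the start, scored 639.91, above that of Hoxc8. Hoxc5 had 538.09 and Hoxc4 had 487.42.

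The Hoxd cluster (chromosome 2, 74668225 to 74765142, 9 genes on the plus strand) was the least marked, with 12 peaks over 19.9% of its length and a median score of 173.4. Its highest peak, 959.79 at Hoxd8, was lower than the highest of each other cluster, and its widest, 2367 bp at Hoxd3, was narrower. Hoxd1 had 577.16, Hoxd11 had 332.69, Hoxd9 had 318.76 and Hoxd3 had 311.1. Hoxd13, a gene of digit patterning, had a peak of 69.26, at percentile 6.81 of the list. Hoxd12 had none, and the start of Hoxd4 was 5154 bp from the nearest peak, a weak one of 81.46 inside its span. Hoxd10 had no peak over its span and none at its listed start; the 5′ end of its annotated span lay 658 bp from the peak at Hoxd11.

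Starts were then taken from the RefSeq promoter table, which matched 22 of the 39 genes. An H3K4me3 peak lay within 1 kb of a listed start in 18 of the 22, against 60.6% of protein-coding genes with a listed start; Hoxa11, Hoxd12, Hoxd10 and Hoxd4 had none. When the 5′ end of the span was added by the strand of the cluster, 33 of the 39 genes had a peak within 1 kb of a start. No share of all genes counted this way is given. These 33 genes rest on 30 peaks, since Hoxa9 with Hoxa7, Hoxb8 with Hoxb7, and Hoxd11 with Hoxd10 share their highest peak.

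The bases before 6 listed starts are printed to set starts with and without the mark beside each other, and Hoxb1 and Hoxb4 are those with the nearest DLX3 peaks among the 22 genes. Each is the 250 bases before the start in the RefSeq table (GRCm38.p6), 5′ to 3′ on the strand of the gene. Capitals mark TAAT or its reverse complement ATTA, the core that homeodomain proteins recognise.
Hoxb1, chr11:96365508-96365757, plus strand: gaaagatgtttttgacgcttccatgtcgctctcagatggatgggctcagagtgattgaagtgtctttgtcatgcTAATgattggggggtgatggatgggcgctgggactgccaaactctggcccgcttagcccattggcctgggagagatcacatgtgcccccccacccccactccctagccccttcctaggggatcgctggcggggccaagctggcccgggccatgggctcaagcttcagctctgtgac
Hoxb4, chr11:96318017-96318266, plus strand: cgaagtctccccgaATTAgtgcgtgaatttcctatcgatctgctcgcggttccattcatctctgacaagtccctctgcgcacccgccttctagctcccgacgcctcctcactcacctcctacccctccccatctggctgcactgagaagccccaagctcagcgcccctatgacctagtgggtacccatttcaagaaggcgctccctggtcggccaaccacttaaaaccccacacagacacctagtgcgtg
Hoxa5, chr6:52204588-52204837, minus strand: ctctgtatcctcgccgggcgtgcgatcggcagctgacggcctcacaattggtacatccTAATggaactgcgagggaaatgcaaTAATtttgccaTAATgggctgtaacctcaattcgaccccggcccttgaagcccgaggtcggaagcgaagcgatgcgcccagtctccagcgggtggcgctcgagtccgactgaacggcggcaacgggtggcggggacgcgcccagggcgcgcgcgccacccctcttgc
Hoxa9, chr6:52227371-52227620, minus strand: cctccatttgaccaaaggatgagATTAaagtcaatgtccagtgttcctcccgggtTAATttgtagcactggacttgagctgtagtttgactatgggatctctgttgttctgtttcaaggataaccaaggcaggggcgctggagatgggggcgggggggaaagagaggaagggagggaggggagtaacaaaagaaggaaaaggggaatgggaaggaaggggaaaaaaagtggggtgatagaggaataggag
Hoxa11, chr6:52245811-52246060, minus strand: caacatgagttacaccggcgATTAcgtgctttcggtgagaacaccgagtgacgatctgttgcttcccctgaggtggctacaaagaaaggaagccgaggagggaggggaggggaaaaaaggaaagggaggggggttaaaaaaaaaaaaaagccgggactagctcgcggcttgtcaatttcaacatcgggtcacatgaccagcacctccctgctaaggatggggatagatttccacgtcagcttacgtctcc
Hoxd4, chr2:74721728-74721977, plus strand: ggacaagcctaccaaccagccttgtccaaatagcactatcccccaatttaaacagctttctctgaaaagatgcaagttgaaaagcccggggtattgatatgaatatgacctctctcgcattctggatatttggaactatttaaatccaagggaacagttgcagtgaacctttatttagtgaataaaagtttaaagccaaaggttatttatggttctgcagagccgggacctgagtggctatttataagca
Hoxb1, Hoxb4, Hoxa5 and Hoxa9 carried H3K4me3 at these starts and Hoxa11 and Hoxd4 did not. The ratio of observed to expected CpG was 0.32 for Hoxb1, 0.76 for Hoxb4, 1.11 for Hoxa5, 0.266 for Hoxa9, 0.792 for Hoxa11 and 0.294 for Hoxd4, so CpG-poor and CpG-rich sequences occurred with and without the mark. Over all 24 listed Hox promoters the median ratio was 0.721, against 0.53 for the 21263 protein-coding promoters of the same length. It was 0.76 for the 18 Hox promoters with H3K4me3 within 1 kb and 0.489 for the 6 without. For all protein-coding promoters the medians were 0.746 with the mark and 0.19 without it. TAAT on either strand was present in 18 of the 24 Hox promoters (75%) and in 49.4% of all promoters. The longer TAATTA, which contains TAAT on both strands, was present in 2, both of Hoxd11 (8.33%), and in 4.31% of all. A match is a match of letters and not a measured site.

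Read across the clusters by paralog group, median scores were highest in the 3′ and middle groups. Among the 12 genes of groups 1 to 4, 11 had H3K4me3 within 1 kb of a start, with a median score of 1016.84 (149.71 to 2390.83, the lowest at the uncertain start of Hoxb3), and the median gene had 62% of its span covered. Hoxa3 counts among them by its listed start, which lies between Hoxa6 and Hoxa7. All 11 genes of groups 5 to 8 had the mark at a start, with a median score of 959.79 (404.93 to 2906.68) and 74.8% of the span covered. Of the 16 genes of groups 9 to 13, 11 had it at a start, with a median score of 211.43 (69.26 to 2561.3) and 23.2% covered. In this last class only Hoxa9 and Hoxc13 lay above the list's median score, against 6 of 12 genes in groups 1 to 4 and 7 of 11 in groups 5 to 8. No cluster fell evenly from 3′ to 5′: Hoxb1 had a lower score than Hoxb8, and Hoxc13 was higher than every other Hoxc gene.

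**Figure D2:**
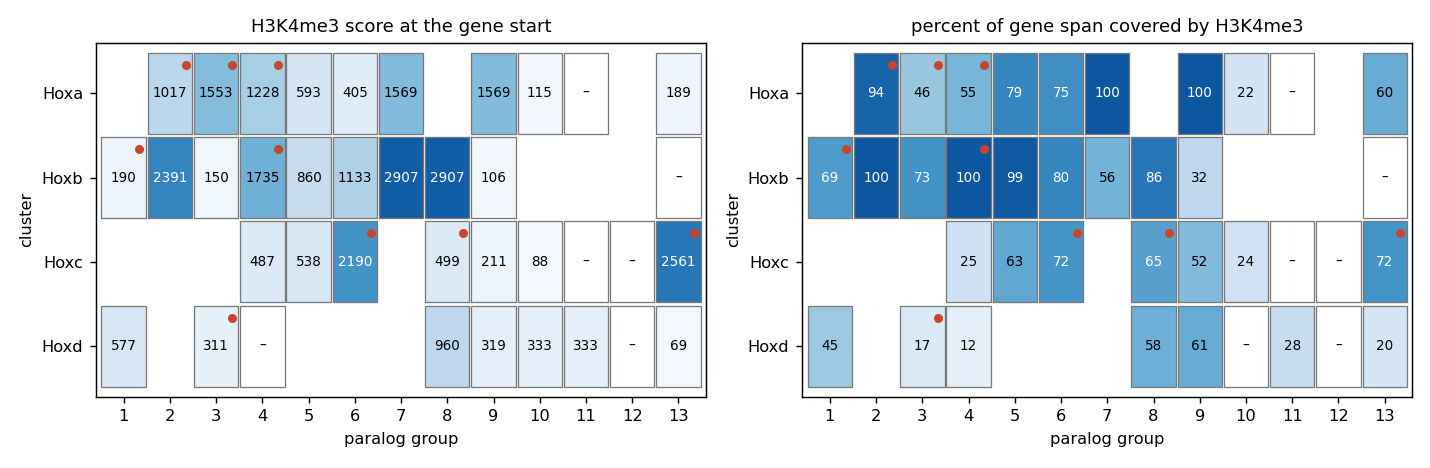
Left, score of the best H3K4me3 peak within 1 kb of a start for each Hox gene, and right, percentage of the gene span covered by H3K4me3, with clusters in rows and paralog groups in columns; darker blue is a higher value, a dash a gene with no such peak or coverage, an empty cell a gene that the cluster lacks or that is not reported here, and a red dot a DLX3 peak within 5 kb of an end of the gene. The highest scores are at Hoxb8 and Hoxb7 (2906.68), Hoxc13 (2561.3) and Hoxb2 (2390.83), and on the left all dashes but Hoxd4 fall in groups 11 to 13.

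The clusters were among the most densely marked stretches of the genome. H3K4me3 covered 1.43% of the genome in all, and among 27002 windows of 100 kb the median coverage was 0 and the 99th percentile was 13.5%. The window with the highest coverage, 44.8%, held Hoxb6 to Hoxb1 (chromosome 11, 96300001 to 96400000). The Hoxa windows stood at ranks 20 and 47, with 26.9% and 21.5%, and the Hoxc windows at ranks 64 and 74. The Hoxd windows stood at ranks 257 and 1338, and the window with Hoxb13 had no H3K4me3. Windows and clusters differ in length, so this is a description of position and not a test.

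Peaks in the clusters also lay close to each other. When H3K4me3 peaks were joined across gaps of up to 1 kb, 16057 domains resulted, and the widest and the second-widest were Hox domains. The widest, 25833 bp (chromosome 11, 96297947 to 96323779), joined 7 peaks with scores of 61.32 to 1734.63 over Hoxb6, Hoxb5, Hoxb3 and Hoxb4, across gaps of 26 to 451 bp. The second, 25049 bp (chromosome 6, 52202339 to 52227387), joined 5 peaks with scores of 404.93 to 1569.31 over Hoxa9, Hoxa7, Hoxa6, Hoxa5 and the 5′ part of Hoxa3. The next were 19137 bp at Irx2, an Iroquois homeobox gene, 18623 bp at Ptch1, the Hedgehog receptor, and 18614 bp at Tfap2a, an epidermal AP-2 factor. The rank rests on the joining: without joining, the widest single Hox peak was 8426 bp at rank 62, with gaps of up to 100 bp it was at rank 73, with gaps of up to 500 bp the Hoxb domain was first and was the only Hox domain among the 20 widest, and with gaps of up to 2 kb it reached 35744 bp, against 21650 bp for the widest domain elsewhere.

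**Figure D3:**
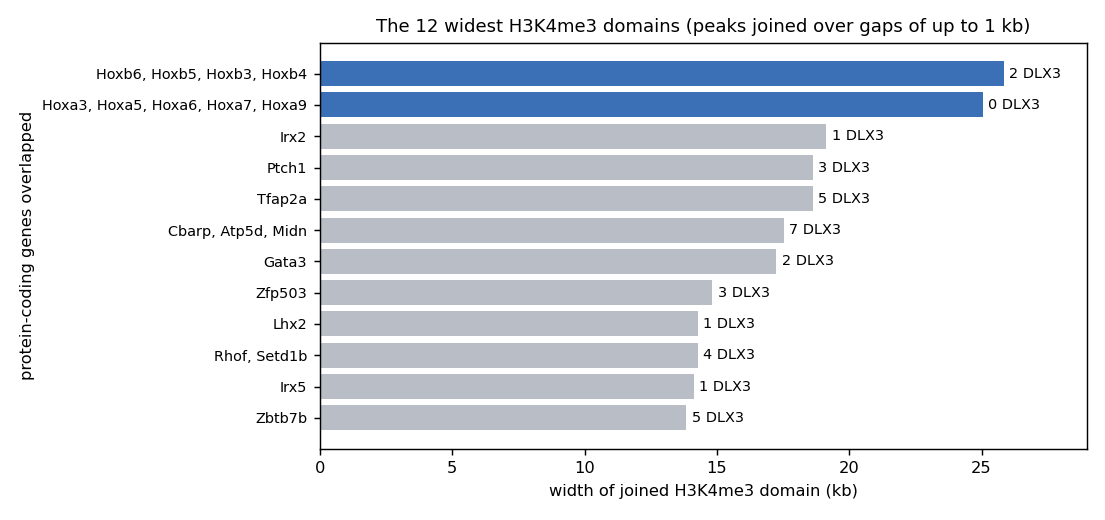
Width in kb of the 12 widest H3K4me3 domains, made by joining peaks across gaps of up to 1 kb, named by the protein-coding genes they overlap, with the number of DLX3 peaks on each. The first and the second are Hox domains of 25833 and 25049 bp, with 2 and 0 DLX3 peaks; the third is 19137 bp.

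Single wide peaks were frequent in the clusters but did not have the scores that such peaks have elsewhere. Of the 57 Hox peaks 12 (21.1%) were at least 4000 bp wide, against 7.82% of the whole list. Their median score was 1652, and none reached the ceiling of 3100, while the 1309 peaks of this width in the list had a median of 2635.6 and 489 stood at the ceiling or above. At the list's median score or above lay 17 of the 57 Hox peaks, and 4 were in the top 20% by score.

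The highest DLX3 score in the clusters was at Hoxc13. Only 10 of the 39 Hox genes had DLX3 within 5 kb of either end, against 35.8% of all protein-coding genes, among them Hoxa2, Hoxa3, Hoxa4, Hoxb1, Hoxb4, Hoxc13, Hoxc8, Hoxc6 and Hoxd3. The 10 genes rest on 12 peaks, some of which count for neighbouring genes, as the one at Hoxc6 does for Hoxc8. Inside the clusters lay 13 DLX3 peaks, 5 in Hoxa, 4 in Hoxb, 3 in Hoxc and 1 in Hoxd. By length this is 4.74, 2.3, 2.59 and 1.03 per 100 kb, above the genome's 0.669 per 100 kb in each cluster, while the share of Hox genes with DLX3 lay below that of all genes. Their median score was 64.22 (50.8 to 249.08), below the list's 83.35, and 3 of the 13 were at or above that median.

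At Hoxc13 a DLX3 peak of 249.08 (chromosome 15, 102920487 to 102921417) lay over the start, inside the H3K4me3 peak of 2561.3, and stood at the 95.4th percentile of DLX3 scores. A weaker one of 75.9 followed 2732 bp downstream within the same H3K4me3 peak. At Hoxa4 a DLX3 peak of 114.32 (chromosome 6, 52191678 to 52192235) lay over the start and one of 69.53 lay 510 bp downstream. DLX3 lay over a start at 3 Hox genes in all, and at Hoxc13 and Hoxa4 a pair of peaks lay on 1 H3K4me3 peak.

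The other DLX3 peaks lay away from starts. At Hoxc6 a peak of 115.6 (chromosome 15, 102998962 to 102999599) lay 736 bp downstream of the start. The Hoxb1 peak of 55.35 lay 732 bp downstream, and at Hoxb4 a peak of 63.05 lay 1446 bp downstream and one of 64.22 lay 2683 bp upstream, within the span of Hoxb3. A peak of 57.33 lay in the span of Hoxa3, and the single Hoxd peak, 59.49, lay within the lncRNA Haglr, 13052 bp upstream of Hoxd1. All of these overlapped H3K4me3.

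Of the 13 DLX3 peaks in the clusters 12 overlapped H3K4me3 (92.3%, 95% Wilson interval 66.7 to 98.6), against 42.1% of all DLX3 peaks. The exception, the lowest at 50.8 (chromosome 11, 96260142 to 96260793), lay in the predicted lncRNA Gm53, 10537 bp upstream of Hoxb9. Within 20 kb outside the clusters lay another 2 DLX3 peaks, both past Hoxb1 and both without H3K4me3: 158.85 (96380255 to 96381093), 12001 bp from the cluster, and 103.15 (96383305 to 96383881), 15051 bp from it. Both were higher than every DLX3 peak inside Hoxb. The share of peaks inside the clusters covers 13 peaks that lie close to each other, and the interval covers counting error only. H3K4me3 itself covered 19.9% to 44.2% of each cluster but 1.43% of the genome. The part of this density in the share was not tested.

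Read the other way, few of the marked sites had DLX3. Of the 57 H3K4me3 peaks in the clusters 9 overlapped DLX3 (15.8%, 95% Wilson interval 8.54 to 27.4), against 40.7% of the whole list. DLX3 overlap rises with H3K4me3 width and score over the whole list, so Hox peaks were set beside peaks of like width and of like score. Among peaks of 4000 bp or wider 4 of 12 Hox peaks (33.3%) had DLX3, against 70.5% of all, and among those of 2500 to 4000 bp 0 of 13 had it, against 56%. In the class of 1500 to 2500 bp it was 4 of 19 (21.1%) against 38%, and under 1500 bp 1 of 13 against 19.5%. At or above the list's median H3K4me3 score 5 of 17 (29.4%) had DLX3 against 58.4%, and below it 4 of 40 (10%) against 23.1%. In every width and score class the Hox share was the lower one, in counts of at most 40 peaks and without a test.

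**Figure D4:**
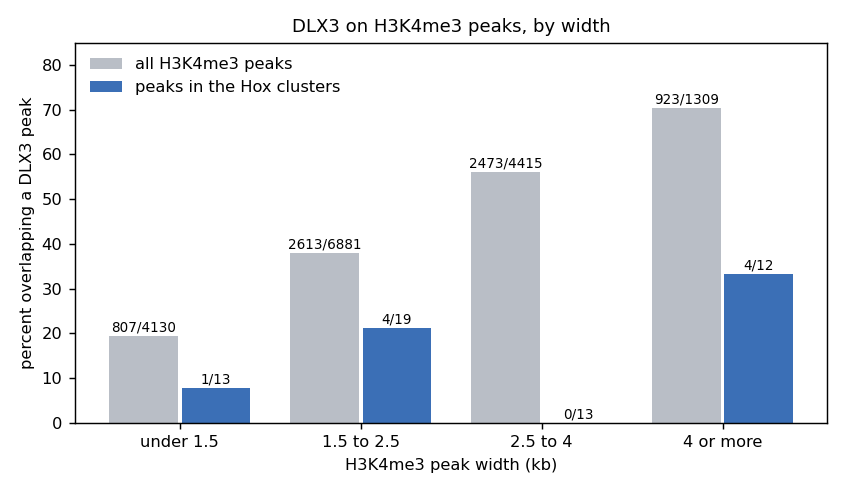
Percentage of H3K4me3 peaks that overlap a DLX3 peak, by width class of the H3K4me3 peak, for the 57 peaks in the Hox clusters and for all 16735 peaks. The Hox value is lower in each class, 33.3% against 70.5% at 4000 bp or wider and 0% against 56% between 2500 and 4000 bp.

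The Hoxb domain held 2 and the Hoxa9 to Hoxa5 domain held none, the only one of the 12 widest domains of the genome without DLX3 at this joining gap of 1 kb. With gaps of up to 500 bp it was not among the 20 widest, since its own gaps reach 961 bp. Of the 100 widest domains 90 had DLX3, and of all domains 41.6%. Sorted by H3K4me3 within 1 kb and DLX3 within 5 kb of a gene end, 10 Hox genes had both, 21 had H3K4me3 without DLX3 and 8 had neither. DLX3 was thus within 5 kb of 32.3% of the Hox genes with H3K4me3 at an end, and of 54.8% of all such protein-coding genes. Peaks inside a span do not enter this sort. Hoxa10, Hoxd11 and Hoxd4, counted with neither, had H3K4me3 over 22.3%, 28.5% and 12.1% of their spans. Hoxb3, counted without DLX3, had 2 DLX3 peaks over its span.

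Each cluster also holds noncoding genes. Of 27 lncRNAs in or within 10 kb of the clusters 18 had H3K4me3 over their span and 6 had DLX3. No share over all lncRNAs is given here, so these counts cannot be called high or low. Hoxb5os was covered for 85.7%, Hoxaas3 for 82.5% and Hoxb3os for 78.2%, while Haglr, between Hoxd3 and Hoxd1, was covered for 22.8%. Hotair in the Hoxc cluster, studied as a partner of Polycomb proteins, Hottip beyond Hoxa13, studied as a partner of H3K4 methylases, and Hoxa11os had no H3K4me3 over their span. Hotair lies in the unmarked stretch across Hoxc12 and Hoxc11, and Hoxa11os in that across Hoxa11. Because H3K4me3 has no strand, a peak over an antisense RNA and its Hox neighbour cannot be assigned to either.

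The clusters also hold 6 microRNA genes of the miR-10, miR-196 and miR-615 families, known to target Hox messages among others. Their leading mature strands are given in the RefSeq sequence with the seed (bases 2 to 8) in capitals, to show which genes share a seed.
miR-10a-5p: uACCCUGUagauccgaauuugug
miR-10b-5p: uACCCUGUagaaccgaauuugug
miR-196a-5p: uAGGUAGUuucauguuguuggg
miR-196b-5p: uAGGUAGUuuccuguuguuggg
miR-615-3p: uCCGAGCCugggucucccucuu
The seed was identical in miR-10a and miR-10b, which lie at the group 4 genes Hoxb4 and Hoxd4, and in miR-196a and miR-196b, which lie between groups 9 and 10 or upstream of group 9. Loci with a shared seed did not differ by the 1 kb rule, but the miR-10 loci differed in score and coverage. Mir10a lay within an H3K4me3 peak of 61.32, and its best peak within 1 kb scored 1734.63. Mir10b had no H3K4me3 over it, and the nearest peak, 995 bp away, scored 81.46. Mir615 lay within the peak of 538.09 at Hoxc5. None of the 3 miR-196 genes had the mark within 1 kb, with the nearest peak 2515 bp from Mir196b, 5352 bp from Mir196a-1 and 1970 bp from Mir196a-2. No microRNA gene had DLX3 over it. Within 5 kb the best DLX3 peak scored 64.22 at Mir10a and 50.8 at Mir196a-1, and the other microRNA genes had none. These are positions of peaks at the gene bodies, and the starts of the primary transcripts are not given by the files.

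Genes that work with or on the Hox clusters were counted in the same way, against 59.3% of all protein-coding genes with H3K4me3 and 35.8% with DLX3. The 9 TALE cofactors, homeodomain partners that bind DNA together with Hox proteins, all had H3K4me3 at an end, and 4 had DLX3 within 5 kb, among them Pbx2 (DLX3 score 114.83), Pknox1 (102.02) and Meis1 (56.78). Of 28 Polycomb genes 27 had H3K4me3 and 18 had DLX3, led by Jarid2 (300.87), Ezh1 (211.22), Phc1 (191.55) and Rbbp4 (190.26), and Cbx7 had neither near an end. The list of 13 Trithorax and H3K4 methylase genes also holds genes that are not H3K4 methylases, such as Kdm6b. Of the 13, 11 had H3K4me3 and 9 had DLX3. Kdm6b (245.8), Setd1b (184.69), Wdr5 (162.06) and Kmt2d (142.14) were highest among those with both, and Ash2l had neither near an end. Among genes with the mark at an end, DLX3 lay within 5 kb of 44.4% for the cofactors, 66.7% for Polycomb and 72.7% for Trithorax. For all protein-coding genes with the mark it was 54.8%, so the cofactors lay below that share. Among the same genes, the median best H3K4me3 score at either end was 1864.2 for the cofactors, 2081.5 for Polycomb and 2870.2 for Trithorax. It was 859.96 for Hox and 1280.9 for all protein-coding genes. In the Hox clusters the best peak can be a neighbour's, as at Hoxa6, with 593.21 at an end and 404.93 at its start. At starts the Hox median was 577.16.

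The ParaHox genes, the evolutionary sister group of Hox, and the Evx genes that end 2 of the clusters were mostly without the mark. Of these 8 genes 2 had H3K4me3 at an end, Gsx1 with 227.3 and Evx1 with 61.22, and none had DLX3. Pdx1, Cdx1, Cdx2 and Cdx4, genes of gut and pancreas, had neither mark. Evx2, 6705 bp beyond Hoxd13, had a peak of 113.32 inside its span but none at its ends. Of the 16 nearest protein-coding genes outside the clusters, 4 per cluster, 11 had H3K4me3 and 7 had DLX3, near the shares of all genes (59.3% and 35.8%). The nearest to Hoxc on its 3′ side with both was Cbx5, which encodes heterochromatin protein HP1 alpha, with 2858.61 and 373.29, and of the 4 beside Hoxb, Ttll6, Calcoco2 and Skap1 had neither and Snx11 had both, with 1184.31 and 103.42.

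Other homeobox families were set beside Hox. All 6 Dlx genes had H3K4me3 and 5 had DLX3; at Dlx3 itself the DLX3 peak scored 185.43 and the H3K4me3 peak 2724.08, 8290 bp wide. All 6 Iroquois genes, which lie in 2 clusters of their own, had H3K4me3 and 3 had DLX3, while the ParaHox and Evx genes had DLX3 at 0 of 8. Against 35.8% of all protein-coding genes these counts lie on both sides, and no test was made of their difference from Hox. Against the 54.8% of all protein-coding genes with H3K4me3 at an end, 83.3% of the marked Dlx genes and 50% of the marked Iroquois genes had DLX3.

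The labelled cell type was checked on marker genes. H3K4me3 lay at an end of 6 of 6 suprabasal keratinocyte markers, 4 of 4 basal markers and 5 of 5 hair follicle markers found, one of which is Hoxc13 itself and so no separate check. It lay at 0 of 3 endothelial, 0 of 3 immune and 0 of 2 neuronal markers and at 1 of 3 melanocyte markers. All 4 fibroblast markers had H3K4me3, with scores of 169.74 to 476.21, and none had DLX3 within 5 kb. The suprabasal markers had scores of 377.61 at Krt1 to 1083.54 at Krt10, so the ranges overlapped. Median scores were 363.04 for fibroblast, 532.88 for suprabasal and 1136.7 for basal markers. DLX3 lay within 5 kb of 4 of 6 suprabasal, 4 of 4 basal, 3 of 5 hair follicle, 2 of 3 endothelial, 1 of 3 immune, 1 of 3 melanocyte and 1 of 2 neuronal markers. Fibroblasts are known to carry a Hox code of body position, and hair follicle cells express Hoxc13. The part of these cells in the Hox peaks was not tested.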

How the data were processed

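The authors deposited 1 peak list on mm10 for DLX3 and 1 for H3K4me3, with a score per peak. Bowtie 1.1.2, MACS 1.4.2 and HOMER were used, per the submitters' processing notes. Their roles and settings, and whether IgG was the control, are not given in sources used here. MACS-type scores grow with depth and width, and 766 H3K4me3 peaks stand at a ceiling of 3100.

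Gene spans came from RefSeq (GRCm38.p6) and starts from its promoter table. H3K4me3 was counted within 1 kb of either end of a span or of a start, DLX3 within 5 kb of either end, and an overlap needed 1 bp. Scripts ran in Python 3.11.15 with SciPy 1.17.1 and were tested on made-up intervals. Named were all Hox genes, DLX3 peaks within 20 kb, and at most 4 genes per list with both marks, by DLX3 score, and with neither; Evx1, Evx2 and Dlx3 always; other names were chosen after their values were seen. The members and lists were chosen with earlier results of these data known. The alternatives were score, window, overlap and start definitions. Depth is unknown, and intervals cover counting error only. The values of 1 Hox gene and 1 cofactor gene are not reported here, though they are in the counts.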

Additional observations from a re-analysis of the deposited data

How the results depend on the processing

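Score thresholds and, for DLX3, the window moved the Hox counts. Shares over all protein-coding genes are given for the main settings only. The other gene counts below therefore do not show where Hox stands against all genes. Of the 31 Hox genes with H3K4me3 at an end, 16 were left at scores from the list median up and 5 in the top 20%; counting over the span gave 33 and a window of 5 kb gave 36. The 10 genes with DLX3 became 5 within 1 kb and 23 within 20 kb, 4 from the median DLX3 score up, 1 in the top 20%, and 9 by peak centre. Of the 13 DLX3 peaks, the 12 on H3K4me3 stayed 12 by peak centre or with at least 50% covered. With both lists at or above the median, 3 of the 3 DLX3 peaks left were on H3K4me3. With both in the top 20% it was 1 of 1, so the number of peaks fell and not the share. The 18 listed starts with H3K4me3 became 7 from the median score up, 1 in the top 20%, and 33 when all 39 genes were used, a choice made after seeing the data, as were the other gaps for joining peaks. Coverage of Hoxa was 29.3% from the median score up, 0% with the top 20% and 37.7% with 10 kb added at each side; of Hoxb 23.4%, 7.5% and 33.5%; of Hoxc 8.79%, 8.79% and 27%; and of Hoxd 2.4%, 0% and 16.8%. Hoxd thus kept the lowest coverage in each setting, equal to Hoxa at 0% in the top 20%, and Hoxc had the highest in that setting. With 1 library per antibody no library could be left out. No paired analysis was possible because each antibody had 1 library and the result comes from no test.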
